A study of Mus musculus with 16 samples.

Results

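Pyraclostrobin and trifloxystrobin are strobilurin fungicides. They were compared library against library at 30, 100, 300 and 1000 nM. The comparison used 8 of the 16 RNA-seq libraries of the series, 4 for each compound, taken by their labels and paired by concentration. C17.2α cells are a neural cell line from mouse cerebellum, engineered to express the thyroid hormone receptor TRα1, and were grown in serum stripped of thyroid hormone. All 8 cultures received 1 of the compounds in DMSO for 24 h, without added T3. Each concentration of a compound is 1 library, so no single concentration has a replicate, and by the study's description the libraries came from 1 experiment. Adjusted p-values therefore measure only the spread between these libraries.

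Strobilurins block electron transfer at the quinol oxidation site of respiratory complex III, the cytochrome bc1 complex, which holds the mitochondrially encoded cytochrome b. The molecules differ in the head group that occupies this site, a methoxycarbamate in pyraclostrobin and a methoxyiminoacetate in trifloxystrobin, and in the side chain, which is a chlorophenyl pyrazole in the former and a trifluoromethylphenyl oxime ether in the latter. Cells with impaired mitochondria or short of amino acids can switch on the integrated stress response, in which the transcription factor Atf4 raises genes of amino acid transport, amino acid synthesis and tRNA charging. DNA damage and nucleolar stress can activate p53, whose target genes encode inhibitors of the cell cycle, repair enzymes and inducers of apoptosis.

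The total count was 12292390 to 17278217 per pyraclostrobin library and 13044534 to 17818542 per trifloxystrobin library. Levels are in CPM, the counts of a gene relative to the library total scaled by TMM factors. The test was edgeR's quasi-likelihood test with concentration as a block, and it covered the 9771 genes with an average over 10 CPM. A gene under 10 CPM in most libraries could pass this minimum through the libraries where it was high. Genes as low without such a rise were not tested. A gene was called when its Benjamini-Hochberg adjusted p-value was under 0.05. Differences are log2 values of pyraclostrobin minus trifloxystrobin, given with a standard error (SE) from the fitted model. Where 300 and 1000 nM or 30 and 100 nM are pooled, the difference is over 2 matched pairs. Its SE and p-value draw on the residual spread of the low and high pairs together, and do not measure that of the 2 pooled pairs alone. The labelled neural identity rests on few markers. Of 11 neural progenitor markers 6 passed the 10 CPM minimum, as did 2 of 9 neuron markers, 1 of 7 astrocyte markers, 3 of 9 oligodendrocyte lineage markers and 0 of 7 microglia markers, against 6 of 9 mesenchymal markers. The first principal component (62.8% of the variance) set pyraclostrobin at 300 and 1000 nM apart from the other 6 libraries. The second (14.1%) set apart trifloxystrobin at 100 nM, which had a score of 15.4 against -7.14 to 5.54 in the others. All 35 genes of the integrated stress response list were lowest in this library among the trifloxystrobin libraries, and 40 of 41 DNA replication genes were highest in it, whereas over all genes tested it was lowest in 33.6% and highest in 33.9%. Counts that rest on it are also given without the 100 nM pair.

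The compounds were told apart at the high concentrations. At 300 and 1000 nM, 1131 genes were higher with pyraclostrobin (11.6% of the genes tested) and 1087 were lower (11.1%). Counts of list members called at these concentrations are to be read against these 2 shares. Of these calls, 94 were over 2-fold higher and 57 over 2-fold lower. Taken singly, a difference of over 2-fold was seen for 0.235% of genes at 30 nM, 0.113% at 100 nM, 1.38% at 300 nM and 2.3% at 1000 nM. Both libraries at 300 and 1000 nM of pyraclostrobin were above all 4 trifloxystrobin libraries for 27.9% of genes and below all 4 for 27.2%. Without the 300 or the 1000 nM pair, the high contrast sets 1 library against 1 and takes its spread from the low pairs only. Such fits cannot tell whether the calls need both high pairs. Over the genes tested, which are not independent, the differences at 300 and 1000 nM correlated with r = 0.805. Those at 30 and 100 nM correlated with r = -0.152. With DESeq2, 1267 genes were called, of which 1263 were also called by edgeR.

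At 30 and 100 nM, edgeR called 0 genes (0% of the genes tested, with 574 at an unadjusted p under 0.05) and DESeq2 called 0. Averaged over the 4 concentrations edgeR also called 0 genes (0%, with 1935 at an unadjusted p under 0.05), and DESeq2 called 149. Without the 100 nM pair the average difference was called for 1395 genes, 713 higher and 682 lower. With 1 low pair left, the low contrast sets 1 library against 1 and takes its spread from the high pairs only, so it compares those libraries and not the compounds. It then called 208 genes for the 30 nM pair and 149 for the 100 nM pair. The change of the difference from the low to the high concentrations was itself called for 65 genes in the upward direction (0.665%) and 46 in the downward direction (0.471%). This change was called for 481 genes without the 100 nM pair and for 1620 without the 30 nM pair.

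**Figure D1:**
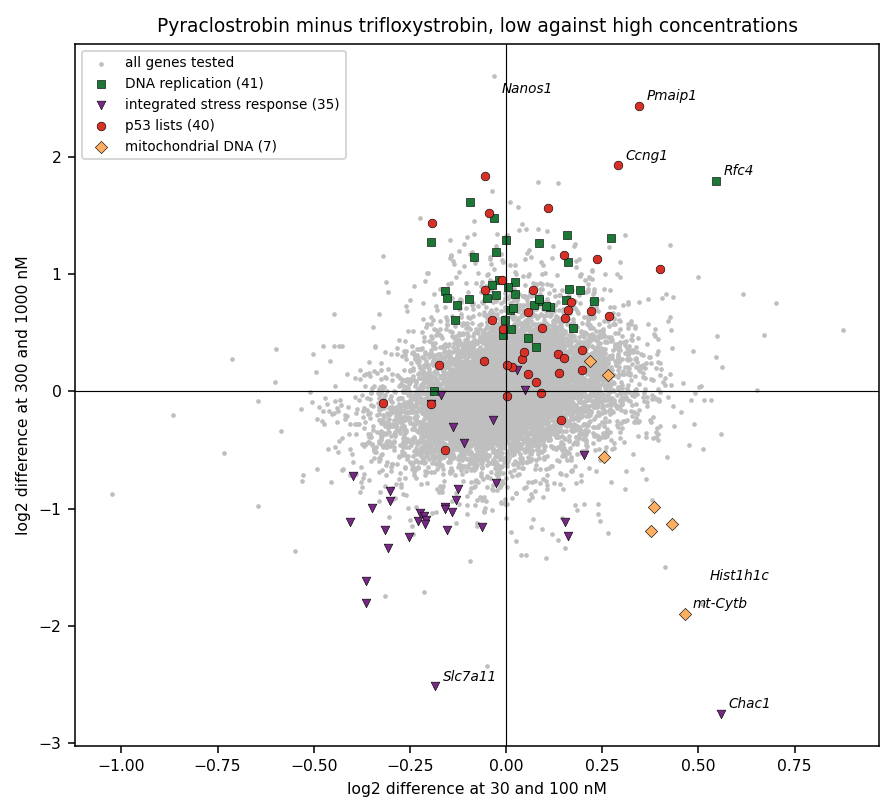
Each point is 1 of the 9771 genes tested, with the log2 difference (pyraclostrobin minus trifloxystrobin) at 30 and 100 nM on the horizontal axis and at 300 and 1000 nM on the vertical axis. Colours mark the DNA replication (41), integrated stress response (35), p53 (40) and protein-coding mitochondrial DNA (7) genes tested. The replication genes spread above 0 on the vertical axis and the stress response genes below it, while the 7 protein-coding genes of mitochondrial DNA lie to the right of 0 at low concentrations.

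Promoter sequences are shown first for a few p53 and Atf4 target genes whose windows hold the matching element, since p53 and Atf4 are known to act through short elements near the start sites of many of their targets. The windows come from RefSeq on GRCm38.p6, hold 80 bases of the 300 searched (250 before and 50 after an annotated start), and are written in the direction of the gene. Windows that overlap an untranslated region annotated in GENCODE M21 are not shown. Capitals mark matches to the p53 consensus decamer, a palindrome. The window of Ccng1 is at chr11:40755427-40755506 on the minus strand, that of Cdkn1a at chr17:29090871-29090950 on the plus strand and that of Mdm2 at chr10:117710900-117710979 on the minus strand.
Ccng1: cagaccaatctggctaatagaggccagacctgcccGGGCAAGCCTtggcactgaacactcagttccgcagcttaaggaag
Cdkn1a: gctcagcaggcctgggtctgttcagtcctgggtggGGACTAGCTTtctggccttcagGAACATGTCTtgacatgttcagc
Mdm2: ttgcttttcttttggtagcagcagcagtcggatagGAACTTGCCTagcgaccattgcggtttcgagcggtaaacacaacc
Of the p53 target genes tested, 33 had a promoter window and 11 of them (33.3%) held the decamer on either strand, as did 8 of the 19 with a window among those called higher. The share was 8.0% over the 7402 genes tested that had a window and 9.55% over all 27025 genes with one. A gene with several RefSeq starts was counted as holding an element if the window of any start did. A match is a description of the letters and not a site of binding in these cells.

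For Atf4, capitals mark TGATGNAA on either strand, the C/EBP-ATF response element. The window of Chac1 is at chr2:119351013-119351092 on the plus strand, that of Slc7a11 at chr3:50443636-50443715 on the minus strand and that of Pck2 at chr14:55540127-55540206 on the plus strand.
Chac1: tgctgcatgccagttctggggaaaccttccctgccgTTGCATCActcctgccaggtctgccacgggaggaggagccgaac
Slc7a11: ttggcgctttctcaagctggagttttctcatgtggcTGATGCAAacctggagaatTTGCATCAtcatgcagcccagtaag
Pck2: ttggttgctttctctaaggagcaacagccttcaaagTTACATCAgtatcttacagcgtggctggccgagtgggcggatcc
The element was held by 11 of the 29 stress response genes tested that had a window (37.9%), by 5 of 13 aminoacyl-tRNA synthetase genes (38.5%) and by 2.57% of all genes tested that had one. Slc7a11 held it on both strands, a few bases apart.

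Genes of p53 feedback and cell cycle arrest were higher with pyraclostrobin at the high concentrations. Of 19 tested, 10 were higher and 1 was lower, with a median difference of 0.54, against 11.6% and 11.1% and a median near 0 over all genes tested. Ccng1, which encodes cyclin G1, a p53 target that acts on Mdm2, is at chr11:40748552-40755311 (GRCm38). Its level was 541, 578, 1642 and 2151 CPM at 30, 100, 300 and 1000 nM of pyraclostrobin. With trifloxystrobin it was 387, 540, 453 and 538 CPM at the same concentrations. Both high pyraclostrobin libraries lay well above the other 6, and the DMSO libraries held 379 and 353 CPM. The second DMSO library holds the same counts as azoxystrobin at 100 nM, so which of these samples it is cannot be told. The difference at 300 and 1000 nM was 1.93 (SE 0.12, adjusted p = 0.00013) and its change from the low concentrations was 1.64 (adjusted p = 0.00673).

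Cdkn1a, the p21 inhibitor of cyclin-dependent kinases (chr17:29090976-29100727), was at 36.7, 48.1, 135 and 142 CPM with pyraclostrobin. It was at 42.1, 44.8, 43.1 and 53.4 CPM with trifloxystrobin. The low libraries of both compounds were interleaved, and those at 300 and 1000 nM differed 3.13-fold and 2.65-fold. The difference was 1.52 (SE 0.12, adjusted p = 0.000422), and at 30 and 100 nM it was -0.04, with a 95% interval from -0.31 to 0.22. Mdm2, the ubiquitin ligase of p53 and itself a target, was at 209, 206, 356 and 432 CPM with pyraclostrobin. With trifloxystrobin it stayed between 201 and 217 CPM. Its difference was 0.95 (SE 0.11, adjusted p = 0.00159) at the high concentrations and -0.01 (95% interval -0.25 to 0.23) at the low ones. The transcript of p53 itself, Trp53, went the other way, at 147 and 160 CPM with 300 and 1000 nM of pyraclostrobin against 212 and 222 CPM with trifloxystrobin (difference -0.50, SE 0.09, adjusted p = 0.00823). The other members called higher were Pmaip1, Trp53inp1, Psrc1, Eda2r, Phlda3, Btg2 and Ppm1d. Members that did not pass the test included Sesn1 (-0.24), Sesn2 (-0.11), Mdm4 (-0.10) and Gadd45a (0.32).

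Among 22 tested effector genes of repair and apoptosis, 13 were higher and 0 lower, with a median of 0.58. Pmaip1, which encodes the apoptosis inducer Noxa and also belongs to the arrest list, was at 22.7 and 34.4 CPM with pyraclostrobin at 300 and 1000 nM. It was between 4.76 and 6.58 CPM in the other 6 libraries (difference 2.44, SE 0.17, adjusted p = 0.000325). Pmaip1 thus passed the 10 CPM minimum only through the high pyraclostrobin libraries, so its rise there was a condition of being tested. It is counted in the calls of both lists. Ddias, named for suppressing apoptosis after DNA damage, was at 44.7, 42.0, 133 and 166 CPM with pyraclostrobin and at 35.1, 57.1, 38.2 and 45.1 CPM with trifloxystrobin. It differed by 1.84 (SE 0.16, adjusted p = 0.000944). Pidd1, a death domain protein of the PIDDosome, differed by 1.44 (SE 0.16). Polk, a DNA polymerase that copies past lesions, differed by 1.17 (SE 0.10). Smaller differences were called for the death receptors Tnfrsf10b (0.87) and Fas (0.68) and for Bax (0.63), which permeabilises the outer mitochondrial membrane. Bbc3, another apoptosis inducer of the p53 pathway, did not pass the test (-0.04). In both lists together 40 genes were tested, since Pmaip1 is in each. The change from low to high concentrations was called for 5 genes of the arrest list and 6 of the effector list, all upward and with Pmaip1 counted in each. The ribosomal protein paralogue Rps27l, also a p53 target, had the largest difference over the 4 concentrations of the 62 cytosolic ribosomal protein genes tested. It was higher by 1.00 (SE 0.13, adjusted p = 0.00243) at the high concentrations.

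**Figure D2:**
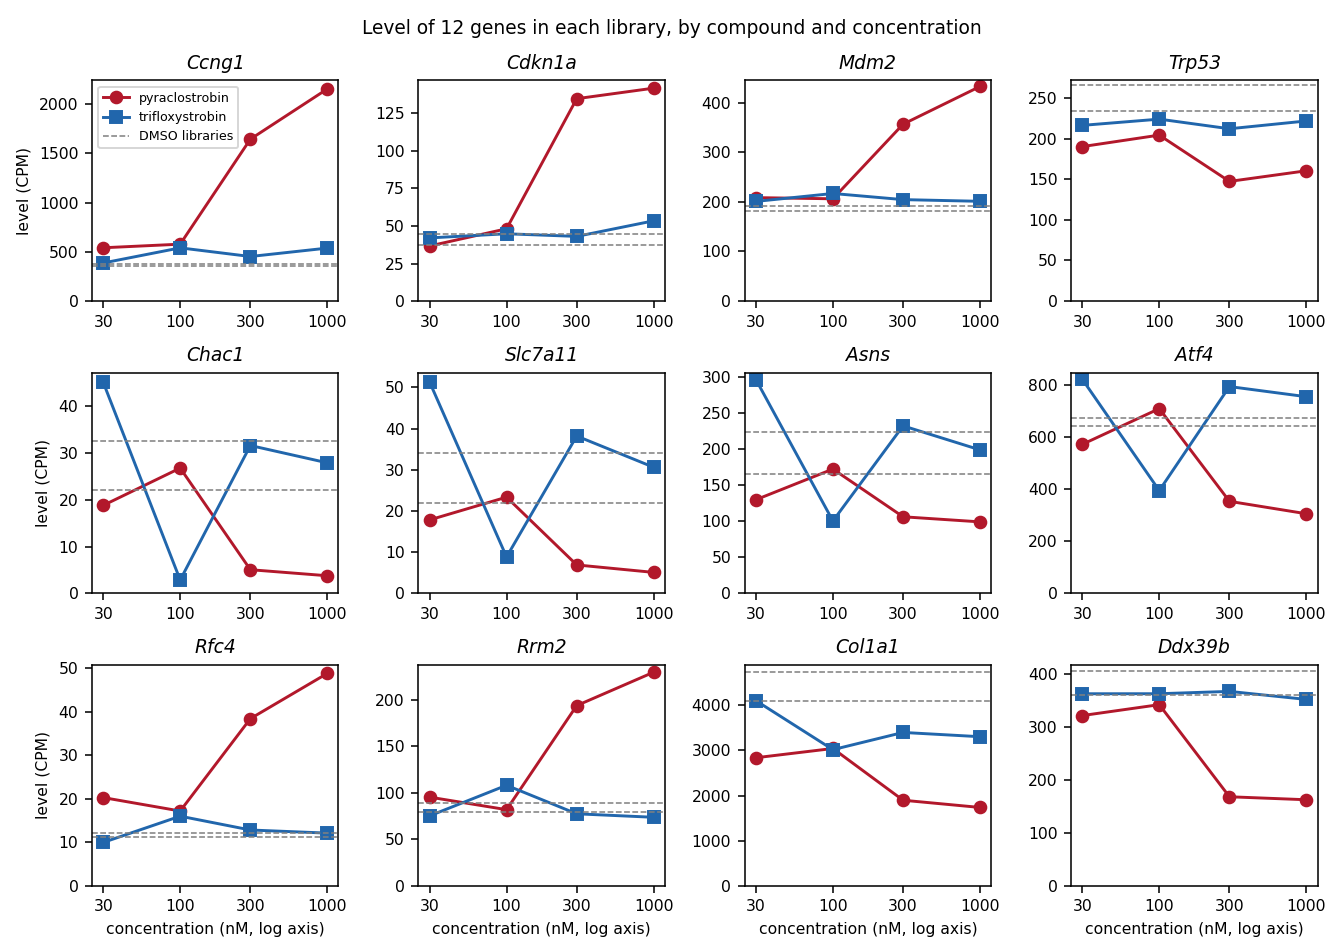
Level in CPM (linear axis from 0) of 12 genes at each concentration (nM, log axis), 1 library per point, with pyraclostrobin as red circles and trifloxystrobin as blue squares. Dashed lines are the 2 DMSO libraries, which entered no test and of which the second holds the same counts as azoxystrobin at 100 nM. The stress response genes Chac1, Slc7a11, Asns and Atf4 fall at 100 nM of trifloxystrobin and at 300 and 1000 nM of pyraclostrobin, whereas Ccng1, Cdkn1a and Mdm2 are high only at 300 and 1000 nM of pyraclostrobin among the libraries shown.

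Genes of DNA replication and nucleotide synthesis were the list with the highest share of calls. Of 41 tested, 39 were higher with pyraclostrobin at 300 and 1000 nM and 0 lower, with a median difference of 0.80. Both high libraries lay above all 4 trifloxystrobin libraries for 39 of the 41 genes, against 27.9% of all genes. Rfc4, a subunit of the clamp loader, was at 20.3, 17.2, 38.4 and 48.8 CPM with pyraclostrobin. With trifloxystrobin it was at 9.98, 16.01, 12.8 and 12.1 CPM. It was higher with pyraclostrobin in all 4 pairs (1.80, SE 0.20, adjusted p = 0.00159). It overlaps Eif4a2 on the other strand, and the sources used here do not state whether counting used the strand. Ccne2 (with Ints8), Mcm7 (with Cops6), Nprl3 (with Mpg), Mrpl18 (with Tcp1), Mrpl27 (with Eme1), Rpl3 (with Syngr1) and Sqstm1 (with Mrnip) also overlap a gene on the other strand, and their levels are uncertain in the same way. Rrm2, the small subunit of ribonucleotide reductase, was at 95.4, 81.9, 194 and 230 CPM with pyraclostrobin and at 75.3, 108, 77.5 and 73.7 CPM with trifloxystrobin. The order was turned round at 100 nM (1.48, SE 0.16, adjusted p = 0.00159 at the high concentrations). Ccne2 (cyclin E2, which drives entry into S phase) differed by 1.62 (SE 0.19), the origin licensing factor Cdc6 by 1.27 (SE 0.17), and the single-strand binding protein Rpa2 by 1.31 (SE 0.20). The replicative clamp Pcna differed by 0.79 (SE 0.14). Mcm7 (0.46) and the pyrimidine synthesis enzyme Cad (0.00) did not pass the test.

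The replication list changed sign among the low concentrations. Its median difference was 0.34 at 30 nM, -0.33 at 100 nM, 0.73 at 300 nM and 0.93 at 1000 nM, and 37 of 41 genes were lower with pyraclostrobin at 100 nM. Without the 100 nM pair, 37 of the 41 genes were called higher on average over the other 3 concentrations, with a median of 0.67. Over all genes, 713 of the 9781 tested in that fit were called higher. The pair left out is the 1 in which this list had the opposite sign, so the 37 is no separate support. The change from low to high concentrations was called upward for 5 members, Ccne2, Rrm2, Gins3, Cdc6 and Ccne1. Mitosis, spindle and kinetochore genes were also higher, with 17 of 52 called higher, 0 lower and a median of 0.37 at the high concentrations. Without the 100 nM pair 34 were called higher and 1 lower, and these counts were the same without the 30 nM pair instead. Calls over all genes rose as well, from 2218 to 3619 in either fit, so the rise is not particular to this list. The medians were 0.43, -0.26, 0.33 and 0.35 from 30 to 1000 nM. The kinetochore genes Spc24 (1.29, SE 0.15) and Spc25 (1.11, SE 0.17) and the spindle gene Ckap2 (1.17, SE 0.18) led this list. Mki67, the proliferation marker, was at 842 and 958 CPM with pyraclostrobin and 864 and 847 CPM with trifloxystrobin at 300 and 1000 nM, and was not called (0.07). Plk1 (-0.39) and Ccnb1 (0.25), which act at entry into mitosis, were not called. The 45 mitosis genes with a promoter window held TTTGAA, the core of the cell cycle homology region, in 32 cases (71.1%), and the 14 with a window among those called higher held it in 7, against 13.7% of the genes tested.

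Genes of the integrated stress response and amino acid supply were lower with pyraclostrobin at 300 and 1000 nM. Of 35 tested, 23 were lower and 0 higher, with a median of -1.03. Chac1, an enzyme that degrades glutathione (chr2:119351229-119354381), was at 18.8, 26.8, 5.08 and 3.79 CPM with pyraclostrobin. With trifloxystrobin it was at 45.1, 2.88, 31.6 and 27.9 CPM. The trifloxystrobin library at 100 nM was thus the lowest of the 8, and the DMSO libraries held 22.1 and 32.7 CPM. The difference was -2.75 (SE 0.77, adjusted p = 0.0315). It was -2.61 at 300 nM and -2.84 at 1000 nM, and the SE also holds the spread of the low pairs (-1.25 at 30 nM and 3.16 at 100 nM). Slc7a11, the cystine transporter, was at 17.8, 23.4, 6.92 and 5.11 CPM with pyraclostrobin and at 51.3, 8.86, 38.2 and 30.6 CPM with trifloxystrobin (-2.52, SE 0.53, adjusted p = 0.0115). Atf4 was at 573, 710, 354 and 306 CPM with pyraclostrobin. It was at 822, 395, 794 and 755 CPM with trifloxystrobin (-1.24, SE 0.24, adjusted p = 0.00943). Asns, the asparagine synthetase, was at 130, 173, 106 and 99.3 CPM with pyraclostrobin and at 297, 101, 233 and 199 CPM with trifloxystrobin (-1.07, SE 0.33, adjusted p = 0.0476).

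The list did not follow concentration in the trifloxystrobin libraries. All 35 genes were lower with pyraclostrobin at 30 nM (median -0.94) and all 35 were higher at 100 nM (median 0.55). At 300 nM 33 were lower (median -1.05) and at 1000 nM 34 were lower (median -0.99). Of the 35 genes, 34 were below both DMSO libraries in trifloxystrobin at 100 nM and 31 were below both in pyraclostrobin at 300 and 1000 nM. The same shares were not counted over all genes tested, so how unusual these counts are cannot be told. The second of the DMSO libraries has the same counts as azoxystrobin at 100 nM. Of the 1087 genes called lower, 1084 were below both DMSO libraries in pyraclostrobin at 300 and 1000 nM. Both of these libraries were below all 4 trifloxystrobin libraries for 21 of the 35 genes, against 27.2% of all genes tested. No member was called for a change of the difference from low to high concentrations. Without the 100 nM pair, 31 were called lower at the high concentrations and 28 on average over the other 3. Over all genes, 682 of the 9781 tested in that fit were called lower on average. The pair left out is the 1 in which this list had the opposite sign, so the 28 is no separate support. The count at the high concentrations was also 31 when the 30 nM pair was left out instead. In both of these fits at the high concentrations the spread comes from the high pairs only, and calls over all genes rose from 2218 to 3619. The count of calls was sensitive to the model, with 5 called by DESeq2 and 4 by a robust quasi-likelihood fit, and the median stayed at -1.03 in both. Trib3 (-1.81), a pseudokinase that restrains Atf4, and Mthfd2 (-0.78), a mitochondrial folate enzyme, did not pass the test, and Cebpg (-0.03) and Ddit4 (0.01) were near 0. Of 20 cytosolic aminoacyl-tRNA synthetase genes, 8 were lower and 0 higher (median -0.45). The alanine and cysteine synthetase genes Aars (-1.03, SE 0.23) and Cars (-1.19, SE 0.29) led this list and are also counted above. The medians of the synthetase list were -0.49, 0.21, -0.44 and -0.49 from 30 to 1000 nM. With DESeq2 and with the robust fit 3 were called lower. Without the 100 nM pair 14 were lower and 1 higher, as they were without the 30 nM pair instead. These are the same 2 fits in which calls over all genes rose.

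**Figure D3:**
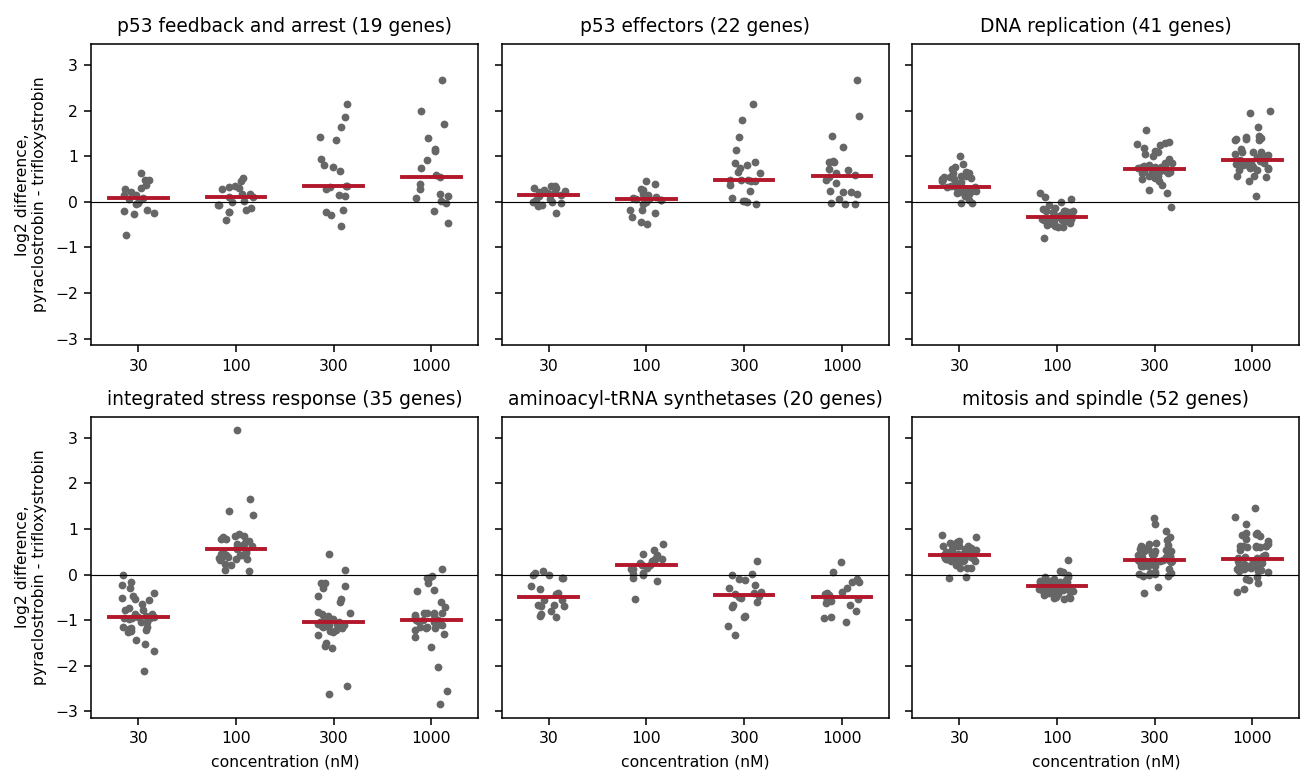
Each grey point is the log2 difference (pyraclostrobin minus trifloxystrobin) of 1 gene at 1 matched concentration (nM), in 6 gene lists, and red bars are medians. The stress response and synthetase lists lie below 0 except at 100 nM, the replication and mitosis lists above 0 except at 100 nM, and the p53 lists spread upward only at 300 and 1000 nM.

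The transcripts of mitochondrial DNA moved in opposite directions at the high concentrations. This DNA is transcribed into long precursors that start near the ribosomal RNA genes and are cut into single RNAs. The share of counts on its transcripts was 9.50 to 11.6% in the pyraclostrobin libraries and 9.38 to 10.1% in the trifloxystrobin libraries. mt-Cytb, which encodes cytochrome b, the complex III subunit that strobilurins bind, was at 21500, 19867, 4814 and 3052 CPM with pyraclostrobin. It was at 13589, 16498, 15588 and 13155 CPM with trifloxystrobin. It was higher with pyraclostrobin at 30 and 100 nM, where the difference was 0.46 (95% interval 0.15 to 0.78, adjusted p = 0.834), and lower at 300 and 1000 nM (-1.90, SE 0.15, adjusted p = 0.000422). The change of -2.37 was called (adjusted p = 0.00436). The gene lies at chrM:14145-15288, the last protein-coding gene on the heavy strand transcript.

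The 12S ribosomal RNA mt-Rnr1, at the other end of that transcript (chrM:70-1024), went up. It was at 2485, 2067, 6790 and 9778 CPM with pyraclostrobin and at 3011, 1792, 2836 and 2186 CPM with trifloxystrobin. It differed by 1.71 (SE 0.20, adjusted p = 0.00176). The 16S ribosomal RNA mt-Rnr2 differed by 0.75 (SE 0.21, adjusted p = 0.034). Further along the genome, mt-Nd1 (0.14, adjusted p = 0.407) and mt-Co1 (0.26, adjusted p = 0.161) were not called and mt-Nd2 was lower (-0.56, SE 0.11). The distal complex I genes mt-Nd4 (-1.19, SE 0.13), mt-Nd5 (-0.98, SE 0.11) and mt-Nd6 (-1.13, SE 0.14), the last of them on the other strand, were all lower. mt-Nd4, mt-Nd5, mt-Nd6, mt-Rnr1 and mt-Cytb were called for the change as well. At 30 nM all 6 mRNAs of mitochondrial DNA tested besides mt-Cytb were higher with pyraclostrobin. The other 6 of the 13 protein-coding genes of this DNA were under the 10 CPM minimum. Nuclear copies of mitochondrial DNA can share its reads, and mt-Nd4 overlaps mt-Nd4l, so levels of single transcripts are uncertain. Nuclear genes of the respiratory chain were counted apart. Of the 14 complex III genes tested, mt-Cytb was lower, Cyc1 (cytochrome c1) was higher (0.35, SE 0.10, adjusted p = 0.0305) and the others, with the Rieske protein gene Uqcrfs1 (0.21), did not pass the test. Of 36 nuclear complex I genes 8 were higher (22.2%, against 11.6% of all genes) and 0 lower (median 0.19), among them Ndufb3 (0.60) and Ndufa5 (0.43). Of 74 mitochondrial ribosomal protein genes 12 were higher and 3 lower (median 0.12), Mrpl18 (0.61) and Mrpl27 (0.54) being among the former. These shares were 16.2% and 4.05%, against 11.6% and 11.1% of all genes, so the higher share was near that of all genes.

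**Figure D4:**
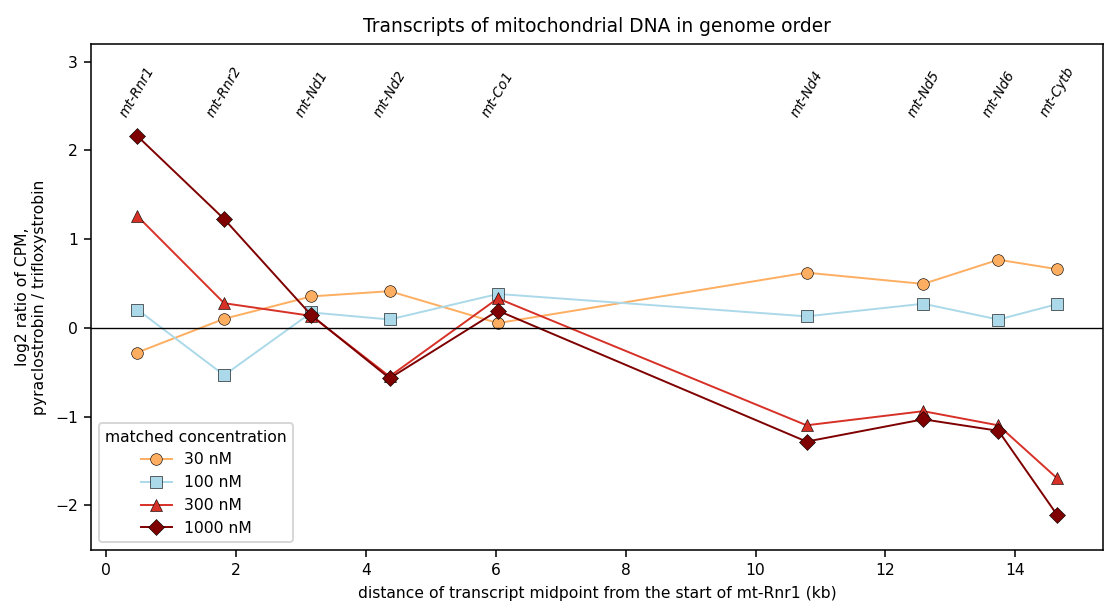
Log2 ratio of CPM (pyraclostrobin over trifloxystrobin) for 9 transcripts of mitochondrial DNA, placed by the distance of their midpoint from the start of mt-Rnr1 (kb), with 1 line per matched concentration. At 300 and 1000 nM the ratio is above 0 for mt-Rnr1 and mt-Rnr2 and below 0 from mt-Nd4 to mt-Cytb. At 30 and 100 nM the lines stay between -1 and 1.

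The genes with the largest differences that had the same sign in all 4 pairs were led upward by Pmaip1, Ccng1, Rfc4 and Snapc5. Snapc5, a subunit of the complex that starts small nuclear RNA transcription, was at 30.5, 30.2, 80.2 and 90.9 CPM with pyraclostrobin and between 23.6 and 29.97 CPM with trifloxystrobin (1.79, SE 0.11, adjusted p = 0.00013). It was followed by Notch3 (1.34), the zinc finger gene Zfp934 (1.24), which overlaps Zfp935, by Polk, by Arap2 (1.14), by the spindle and p53 target gene Psrc1 (1.13) and by the TNF receptor family gene Eda2r (1.05). Outside 300 and 1000 nM of pyraclostrobin, Zfp934 and Arap2 were at 8.14 to 10.7 CPM. Like Pmaip1, they passed the 10 CPM minimum through the high pyraclostrobin libraries. Downward, Dync2h1, the motor subunit of ciliary transport, was at 6.67 and 5.97 CPM with pyraclostrobin at 300 and 1000 nM and at 24.7 and 18.04 CPM with trifloxystrobin (-1.74, SE 0.16). Sfmbt2, a Polycomb group gene whose intron holds a large cluster of microRNAs, differed by -1.71 (SE 0.17). Ddx39b, an RNA helicase of splicing and mRNA export, was at 169 and 163 CPM with pyraclostrobin and at 368 and 353 CPM with trifloxystrobin (-1.12, SE 0.09, adjusted p = 0.000739). The others were Dnhd1 (-1.36), Nckap5l (-1.22), the phosphatase regulator Ppp1r10 (-1.13), Tenm4 (-1.07), the TORC1 inhibitor Nprl3 (-1.03), the metalloprotease Adam12 (-0.99) and Thsd4 (-0.99). In all, 368 of the 1131 genes called higher and 469 of the 1087 called lower had the same sign in all 4 pairs. The same share was not counted over all genes tested, so how unusual these counts are cannot be told.

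Among the genes called for the change from low to high concentrations, it was largest for Nanos1, mt-Cytb, Hist1h1c, Pmaip1 and Socs2. Nanos1, an RNA-binding repressor of translation, was at 8.24, 6.01, 34.1 and 47.6 CPM with pyraclostrobin and between 5.34 and 8.97 CPM with trifloxystrobin. The difference at the high concentrations was 2.70 (SE 0.26, adjusted p = 0.00114). Nanos1 passed the 10 CPM minimum only through the pyraclostrobin libraries at these concentrations. Hist1h1c, the linker histone H1.2, was at 20.2, 21.6, 8.19 and 4.71 CPM with pyraclostrobin. With trifloxystrobin it was at 14.7, 14.6, 19.9 and 24.8 CPM, and the order of the compounds turned between 100 and 300 nM (-1.81, SE 0.23, adjusted p = 0.00242). Of the 70 clustered histone genes 2 passed the 10 CPM minimum, and Hist2h2be (0.27) was not called. Socs2, an inhibitor of cytokine signalling, was at 6.92 and 7.41 CPM with pyraclostrobin at 300 and 1000 nM and at 21.2 and 19.5 CPM with trifloxystrobin (-1.50, SE 0.26). Its trifloxystrobin library at 100 nM held 11.4 CPM.

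Matrix genes were lower with pyraclostrobin at the high concentrations. Of 32 collagen and extracellular matrix genes 13 were lower (40.6%, against 11.1% of all genes) and 0 higher, with a median of -0.29. With a correction for GC content and length 8 were lower and 1 higher (median -0.15). Without the 1000 nM pair, which leaves 1 high pair, the median was -0.17. Col1a1 was at 2837, 3042, 1896 and 1736 CPM with pyraclostrobin and at 4100, 3016, 3397 and 3303 CPM with trifloxystrobin (-0.88, SE 0.13, adjusted p = 0.00398), and the proteoglycan Bgn differed by -0.97 (SE 0.18). Among the marker lists the mesenchymal one moved with these genes, since Col1a1, Col1a2 and Col3a1 belong to both, and 4 of its 6 members tested were lower, Pdgfrb (-0.62) included. Its summed level with pyraclostrobin was 6556, 6582, 4729 and 4300 CPM from 30 to 1000 nM, against 6567 to 7926 CPM with trifloxystrobin. The part of the mix of cell states in these differences was not tested, and in bulk samples fewer cells of a type and less RNA per cell cannot be told apart. Of the progenitor markers Nes was higher (0.37, SE 0.11) and Sox9 lower (-0.63, SE 0.12), and of the oligodendrocyte lineage markers Sox10 (-0.46) and Pdgfra (-0.43) were lower. Neither was called with the GC and length correction, and DESeq2 called Sox10 but not Pdgfra. The neuron markers Map2 (0.00) and Tubb3 (0.16) and the astrocyte marker S100b (0.07) did not pass the test. The microglia markers summed to between 5.22 and 11.2 CPM over the 8 libraries.

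Receptors of the Notch pathway moved apart. Notch3 was at 17.0, 25.4, 50.6 and 57.9 CPM with pyraclostrobin and at 15.6, 18.3, 19.2 and 23.8 CPM with trifloxystrobin (1.34, SE 0.13, adjusted p = 0.00114). Notch2 was at 269, 276, 168 and 140 CPM and at 267, 300, 296 and 275 CPM, respectively (-0.90, SE 0.10, adjusted p = 0.00159). Of the 15 Notch pathway genes tested these were the members with the largest differences over the 4 concentrations. At 300 and 1000 nM 1 of the 15 was higher (6.67%) and 4 were lower (26.7%), against 11.6% and 11.1% of all genes. The receptors' common ligand gene Jag1 (-0.34) and the target gene Hes1 (-0.07) did not pass the test.

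The series asked whether pesticides act on thyroid hormone receptors. The receptor gene Thra was at 72.4, 74.4, 65.5 and 61.4 CPM with pyraclostrobin and at 72.3, 61.2, 67.4 and 75.8 CPM with trifloxystrobin, and the difference at the high concentrations was not called (-0.17, SE 0.11, adjusted p = 0.295). It overlaps Nr1d1 on the other strand. The hormone target Klf9 lay between 27.1 and 34.5 CPM with pyraclostrobin and between 23.4 and 31.8 CPM with trifloxystrobin (0.06, SE 0.15, adjusted p = 0.81). The target Hr was at 3.99 to 4.76 CPM and 3.05 to 5.47 CPM, under the minimum for the test. Of 15 genes tested in this list, 1 was higher (6.67%) and 6 were lower (40.0%), against 11.6% and 11.1% of all genes (list median -0.25). The transporter gene Slc16a10 was higher (0.46, SE 0.10), and among the lower ones were the coactivator genes Ncoa1 (-0.39) and Ncoa3 (-0.37) and the partner receptor gene Rxra (-0.57). Once GC content and length were corrected for, 1 member was lower in place of 6.

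The other lists are read against the 11.6% of all genes called higher and the 11.1% called lower. Of 12 tubulin genes 5 were higher (41.7%) and 0 lower (median 0.31), led by Tubb4b (0.82) and Tubb6 (0.72). Of 33 cholesterol and fatty acid synthesis genes 6 were higher and 0 lower with a median near 0, Idi1 (0.85) and Pmvk (0.85) among them. Of 24 glycolysis and hypoxia genes 4 were lower and 0 higher (median -0.15), among them Pfkl (-0.77) and Eno1 (-0.72). Of 18 interferon and inflammatory genes 5 were higher, the antigen presentation genes H2-K1 (0.63) and H2-D1 (0.55) included, and Vcam1 was lower (-0.51). Of 27 antioxidant genes 6 were higher, such as Prdx1 (0.69), and 3 lower, such as Abcc1 (-0.40). Endoplasmic reticulum chaperone genes were split, with 4 of 20 higher and 3 lower, from Sdf2l1 (0.72) to the transcription factor gene Xbp1 (-0.76). The lists of cytosolic and mitochondrial chaperones, lysosome and autophagy genes and cytosolic ribosomal proteins had shares near those of all genes. The chaperones had 2 of 19 higher and 2 lower, among them Dnajb1 (0.54) and Bag3 (-0.44). Of 32 lysosome and autophagy genes 3 were higher and 4 lower, Sqstm1 (-0.39) being among the latter, and Cd63 was not called (0.48). Of 20 immediate early genes Fos (0.71) and Btg2 (0.61) were higher and 0 were lower, and Klf4 was not called (-0.56). Fos was at 6.75 to 9.75 CPM outside 300 and 1000 nM of pyraclostrobin, and passed the 10 CPM minimum only through those libraries. The cytosolic ribosomal protein genes had 6 of 62 higher and 5 lower with a median near 0, and among the latter were Rpl10a (-0.93) and Rpl3 (-0.71), whose reads can be shared with pseudogenes. Hprt, often used as a reference gene, was at 216 and 251 CPM with pyraclostrobin and 165 and 152 CPM with trifloxystrobin at 300 and 1000 nM (0.55, SE 0.11, adjusted p = 0.0095).

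**Figure D5:**
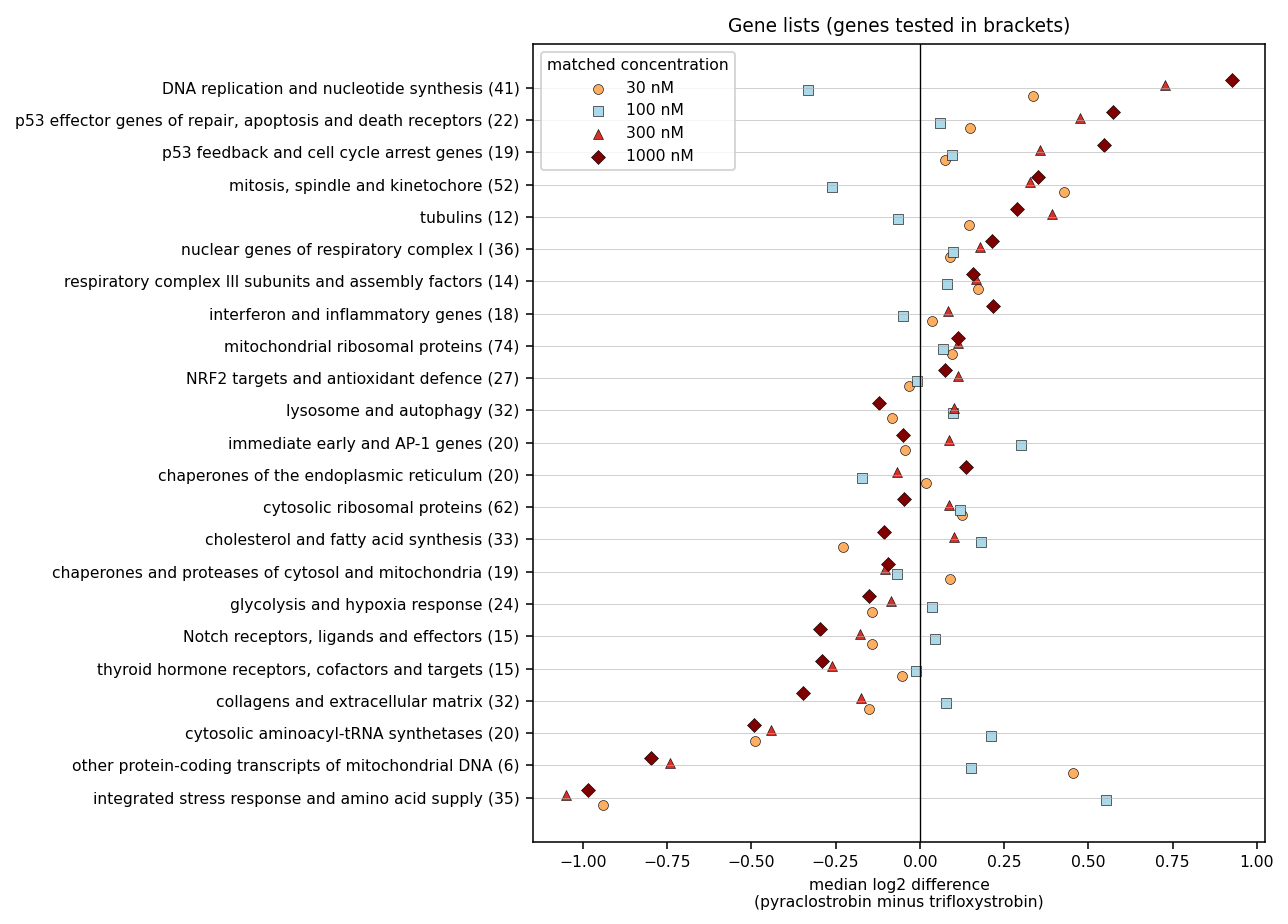
Median over the tested members of each list (number in brackets) of the log2 difference, pyraclostrobin minus trifloxystrobin, with 1 symbol per matched concentration. Among the lists shown, DNA replication has the highest median at 1000 nM (0.93) and the integrated stress response the lowest (-0.99). For both of these lists the 100 nM symbol lies on the other side of 0 from the rest. The clustered histone list, with 2 genes tested, and the marker lists are not shown.

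The correlation of the log2 difference with GC content, taken over genes that are not independent of each other, was r = -0.126, 0.183, -0.108 and -0.385 from 30 to 1000 nM. With the log10 transcript length it was r = -0.256, -0.266, -0.221 and -0.14, so longer transcripts tended to be lower with pyraclostrobin at each concentration. With each library corrected for GC content and length, 942 genes were higher and 881 lower at the high concentrations, and 1445 of these calls were shared with the 2218 made without it. In that fit the median was 0.84 for DNA replication (34 of 41 higher), -0.96 for the integrated stress response (16 of 35 lower), 0.49 for p53 feedback and arrest (10 of 19 higher) and 0.46 for the p53 effectors (12 of 22 higher). Other lists lost calls in it. Complex I went from 8 to 4 genes higher (median 0.09), the mitochondrial ribosomal proteins from 12 to 7 higher (median 0.07), the mitosis list from 17 to 12 higher and the Notch list from 4 to 2 lower. Without the 300 nM pair or the 1000 nM pair, the high contrast sets 1 library against 1, so only medians are given. Without 300 nM they were 0.93 for replication, 0.35 for mitosis, -0.98 for the stress response, -0.49 for the synthetases and -0.35 for matrix genes. The p53 arrest and effector lists had 0.55 and 0.58. Without 1000 nM the medians were 0.73, 0.33, -1.05, -0.44, -0.17, 0.35 and 0.48 in the same order.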

How the data were processed

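C17.2α cells were exposed for 24 h and their RNA was sequenced on a NextSeq500 after Lexogen's SENSE library preparation. The authors aligned reads with Bowtie2 2.3.2.2 to mm10, per the labels, and counted reads per gene with htseq-count. They deposited raw counts, 1 table per library, without normalization. The annotation and the use of strand in counting are not given in the sources used here. The second DMSO library holds the same counts as azoxystrobin at 100 nM, and DMSO levels are given for context with no test.

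The 8 libraries of both compounds were tested with edgeR 4.0.16 (limma 3.58.1, R 4.3.3) with TMM factors, a minimum average of 10 CPM and concentration as a 4-level block. A second model split the compound effect into 30 and 100 nM and 300 and 1000 nM, with 2 residual degrees of freedom and a common dispersion of 0.0138 in the model without the split. The SE is the log2 difference over the root of the F statistic. A prior count of 2 entered log2 CPM. DESeq2 1.42.0, other normalizations and filters, a robust fit, a correction for GC content and length, and each concentration left out were alternatives. No 2 of the 8 libraries were alike, as each of the 28 pairs differed in at least 22355 genes. Libraries of the same concentration did not deviate together from the means of their compounds (r = 0.161, -0.336, -0.158 and -0.129 from 30 to 1000 nM), so the block rests on the matched concentration only. Positions come from GENCODE M21 (GRCm38), which held 54092 of the 54658 symbols, and promoters from RefSeq (GRCm38.p6).

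The compounds, lists and tests were chosen with earlier results of these data known. The genes named are the 10 with the largest differences in each direction among genes called (at 300 and 1000 nM, as none was called over all 4 concentrations) with the same sign in 4 pairs and no predicted symbol. Added to them are the 5 called genes whose difference changed most, the 2 members of each list with the largest difference over the 4 concentrations, and 11 fixed genes. A gene that this rule names is not reported here. Other list members are given as examples and were picked after their values were seen. Figures were drawn with matplotlib 3.10.9 in Python 3.11.15.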

Additional observations from a re-analysis of the deposited data

Results flagged for a closer look

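Each named gene, the total count and the mitochondrial share were searched in the 4 libraries of each compound for a library far from the other 3, with the gap divided by the range. Of the 166 groups of 4 libraries 4 were past Dixon's 95% critical value, where chance gives about 1 in 20. They were Hr at 300 nM of pyraclostrobin (0.845, with 4.76 CPM against 3.99 to 4.11), and Rxra (0.847, with 37.2 CPM against 50.7 to 53.2), Pdgfra (0.873, with 17.0 CPM against 19.3 to 19.7) and Klf9 (0.839, with 23.4 CPM against 30.4 to 31.8) at 100 nM of trifloxystrobin.

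For 23 of the named genes the difference between the compounds changed from 30 and 100 nM to 300 and 1000 nM in a test of the change itself (edgeR, adjusted p under 0.05). The change was upward on the log2 scale for Nanos1 (2.73), Pmaip1 (2.10), Ddias (1.89), Snapc5 (1.71), Ccng1 (1.64), Cdkn1a (1.57), Zfp934 (1.12), Notch3 (1.03), Arap2 (1.02), Polk (1.02) and Mdm2 (0.96). It was downward for mt-Cytb (-2.37), Hist1h1c (-2.32), Socs2 (-1.91), mt-Nd4 (-1.57), mt-Nd6 (-1.56), Sfmbt2 (-1.50), Dync2h1 (-1.43), Ppp1r10 (-1.05), Ddx39b (-0.99), Nckap5l (-0.98), Nprl3 (-0.97) and Notch2 (-0.84). The trifloxystrobin library at 100 nM, which stood apart, entered each of these values. Nanos1, Pmaip1, Zfp934 and Arap2 passed the 10 CPM minimum only through the pyraclostrobin libraries at 300 and 1000 nM. Their rise there was a condition of being tested, so the upward direction of their change is no independent result.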

How the results depend on the processing

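The count at 300 and 1000 nM was 1267 with DESeq2, 647 at a threshold of 0.01, and 7 to 3619 when 1 concentration was left out, with the lowest counts when 300 or 1000 nM was missing and 1 high pair remained. For the average over 4 concentrations, 149 genes were called with DESeq2, 1195 with no filter except a count above 0, and 0 to 1395 when 1 concentration was left out. For 30 and 100 nM, 38 were called with no filter and 0 to 208 when 1 concentration was left out. The change of the difference was called for 611 genes without the replicate block, 173 with upper quartile normalization, 188 with a minimum of 1 CPM, 224 with filterByExpr, 1049 with no filter, 193 with a robust fit, 4 at a threshold of 0.01, 0 with log10 concentration as a linear term, and 0 to 1620 when 1 concentration was left out. The cause was not tested. The fits that leave out 1 concentration hold equally many libraries and differ in which pairs give the spread. Without the replicate block 3073 genes were called at 300 and 1000 nM. With transcripts of mitochondrial DNA left out, an alternative added after seeing the data, 2233 were called.

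Of the 80 named genes tested, 71 were called at 300 and 1000 nM, and 0 reversed in any of the 14 alternatives. Of these calls 64 were lost without the 300 nM pair, 63 without the 1000 nM pair, 10 after correction for GC content and length, 9 with DESeq2 and 5 with a robust fit. The separate effect of depth was not tested.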
